A study of Homo sapiens with 30 samples.

Results

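The genes described here are 38 genes of homologous recombination and of the Fanconi anaemia pathway, taken as a fixed list and examined among 20037 protein-coding RefSeq genes. Each gene was asked for a called peak of RING1 or of RNF2 within 2 kb of either annotated end of the gene, and the other 19999 protein-coding genes gave the background. The members fall into 8 groups by role: end resection and helicases (8 genes), the RPA complex (3), the BRCA1-BRCA2 axis (5), the filament paralogs (5), RAD52 and the RAD54 proteins (3), the junction nucleases (4), the Fanconi core complex with FANCM (8) and the FANCD2-FANCI pair (2).

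Homologous recombination repairs broken chromosomes by copying the intact sister chromatid. Nucleases trim the broken ends to leave 3′ tails, and replication protein A (RPA) coats the tails. BRCA2 then helps the tail to invade the intact copy, and junction nucleases later cut the joined molecules apart. The Fanconi pathway uses a nuclear ubiquitin ligase, the core complex, to mark the FANCD2-FANCI pair at crosslinked DNA and hands the resulting break to recombination. Neural progenitors divide fast and meet replication damage, and inherited loss of several of these genes causes small head size together with bone marrow failure or cancer risk. The paralogs RING1 and RNF2 are the ligases of Polycomb repressive complex 1 (PRC1), which ubiquitinates histone H2A. PRC1 is best known at silenced developmental genes and tends to lie on CpG-rich promoters.

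The series holds 30 CUT&RUN libraries of neural progenitor cells derived from the established embryonic stem cell line H9, in 5 genotypes: wild type and 4 edited at RING1 or RNF2. The results below use the wild-type progenitors, grown as a monolayer in N2/B27/FGF medium with no further treatment, through 2 libraries per antibody and their 4 deposited broad peak lists. The edited genotypes and the H2AK119ub1 and IgG libraries were not analysed here. The lists come in pairs of 1 RNF2 and 1 RING1 list, called set A and set B. The labels neither tie a set to a replicate number nor say whether replicates are separate cultures. The lists hold peaks and no expression values, so the progenitor identity given by the labels could not be checked against marker expression.

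The lists differed widely in length. Set A had 16263 peaks for RNF2 and 12891 for RING1. Set B had 5901 for RNF2 and 659 for RING1. Depth per library is unknown, so a gene without a peak is a gene at which no peak was called, not one shown to lack the protein. Each list comes from 1 library, so no value below carries a replicate error and no test was made. Counts over all members stand beside the same share over the other protein-coding genes. A value that differs between sets A and B differs between libraries of 1 genotype. Fold is the authors' enrichment of a peak over background, and −log10 q is the peak caller's significance.

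RNF2 was called at most of these repair genes in set A and at few of them in set B. In the RNF2 list of set A, 32 of the 38 members (84.2%) had a peak at a gene end, against 56.0% of the other protein-coding genes. In the RNF2 list of set B, 6 of 38 members (15.8%) did, against 21.7% of the other genes. All 6 were among the 32 of set A, and 20.8% of the other genes had RNF2 in both sets. RING1 was called at 21 members (55.3%) in set A, against 45.6% of the other genes, and at 0 of 38 in set B, where 1.32% of the other genes had a peak, so that none among 38 is close to the background. The members thus exceeded the background by 28.2 percentage points for RNF2 and by 9.65 points for RING1 in set A, and lay 5.90 points below it for RNF2 in set B.

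Every member with RING1 in set A also had RNF2 in set A, 21 of 21, which is 65.6% of the members with RNF2. Among the other genes, 94.3% of those with RING1 also had RNF2, which is 76.7% of those with RNF2. The other 11 members with RNF2 in set A had no RING1 there (28.9%, against 13% of the other genes). Of the members, 0 of 38 had peaks in all 4 lists, against 257 of the 19999 other genes (1.29%). No list had a peak at the ends of 6 members (15.8%), namely MRE11, RBBP8, DNA2, WRN, RPA3 and RAD51C, against 40.7% of the other genes.

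**Figure D1:**
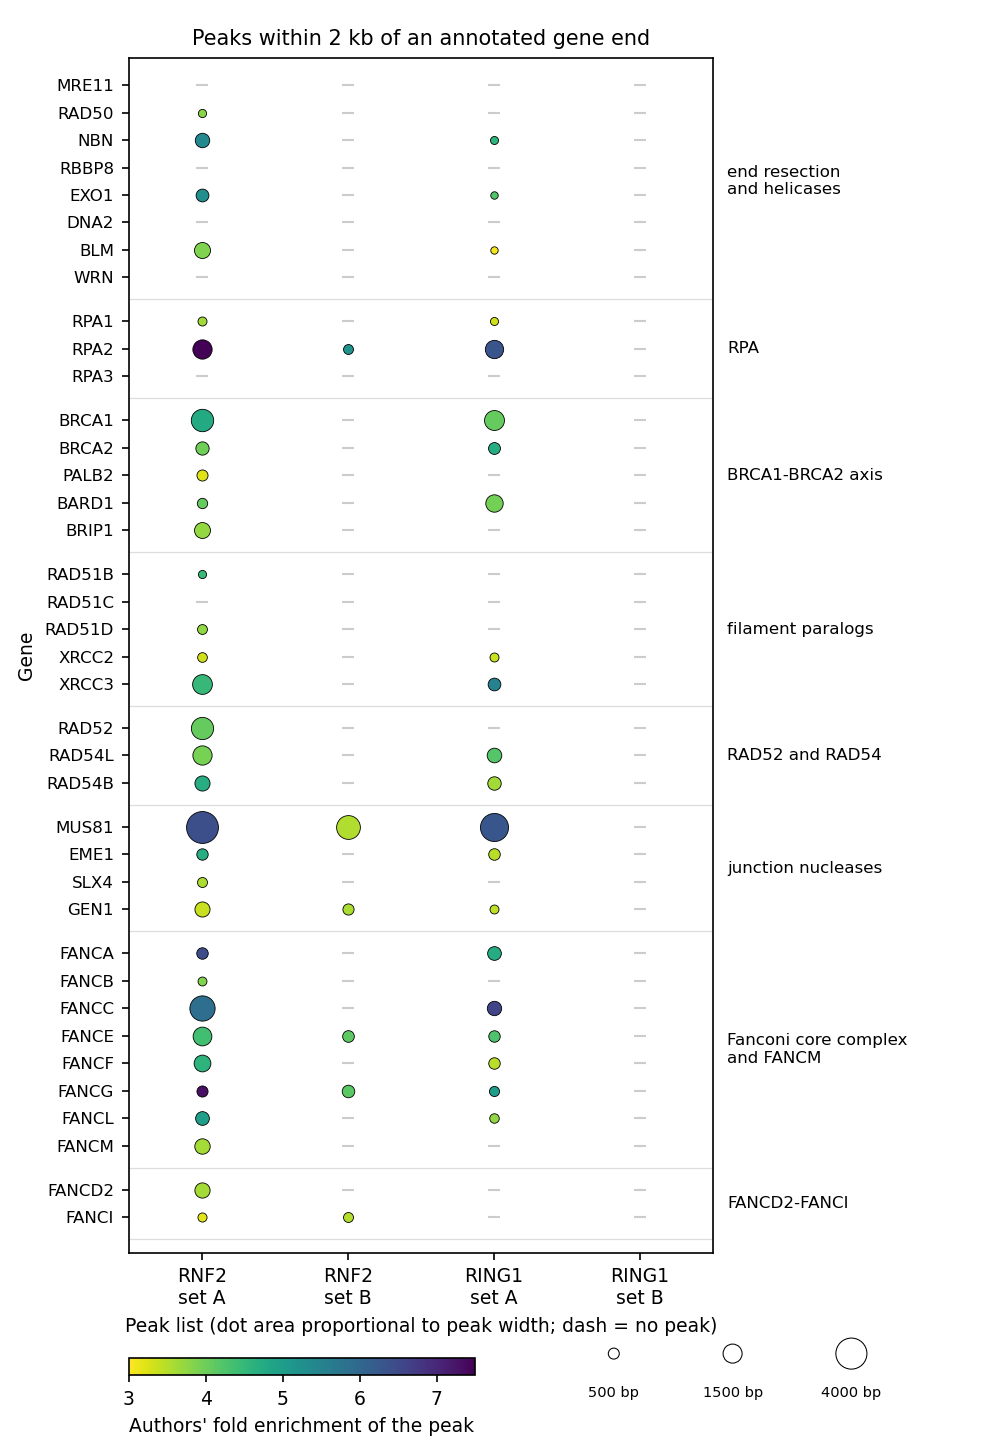
Peaks at the ends of the 38 repair genes, by role (rows) and peak list (columns). The colour of a dot is the authors' fold enrichment, its area is the width of the peak in bp, and a dash means that no peak was called; the RNF2 column of set A holds 32 dots, that of set B 6, the RING1 column of set A 21 and that of set B 0.

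The peaks at these genes were narrower, by their medians, than those at other genes. Over the 32 members with RNF2 in set A, the fold had a median of 4.06 and ranged from 3.21 at FANCI to 7.47 at RPA2, against a median of 4.33 and a highest value of 20.3 at the other genes with a peak. The width had a median of 824.5 bp and ranged from 278 bp at RAD51B to 4214 bp at MUS81, against a median of 1157 bp and a widest peak of 149946 bp at the other genes. For RING1 in set A the 21 members had a median fold of 4.21, against 4.19 at the other genes, and a median width of 554 bp, against 803 bp. The 6 members with RNF2 in set B had a median fold of 3.84 and a median width of 542 bp, against 3.85 and 900 bp at the other genes.

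For RNF2 in set A, the members' excess at gene ends was not seen among the stronger peaks. Peaks at starts inside a gene were not counted here, such as that of RBBP8, with a −log10 q of 9.64. When peaks of −log10 q under 5 were dropped, 6 members kept RNF2 in set A (NBN, RPA2, MUS81, FANCA, FANCC and FANCG), which is 15.8% of the members and 15.7% of the other genes. When each list was cut to its 659 most significant peaks, 1 member kept RNF2 in set A (2.63%), against 3.91% of the other genes. The members' count for RING1 in set A became 4 (10.5%, against 7.96%) under the first of these limits and 2 (5.26%, against 3.70%) under the second. Both counts are small and both shares lie near those of the other genes, so no difference is read from them.

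**Figure D2:**
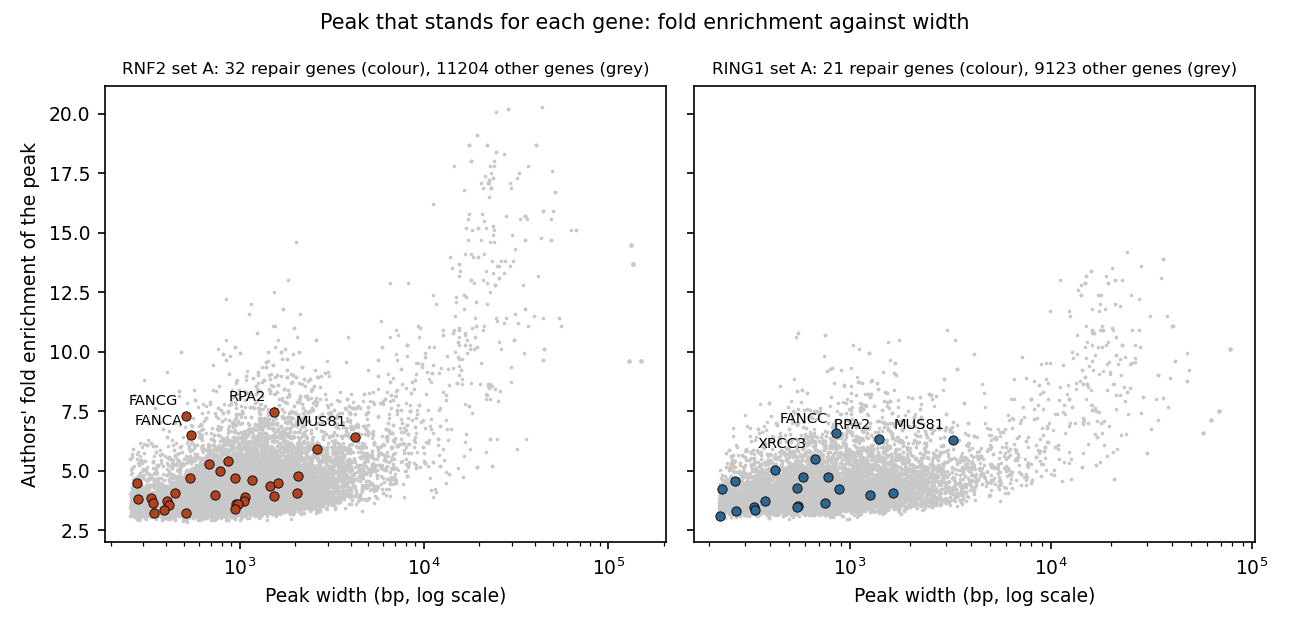
Fold enrichment (vertical axis) against width in bp (horizontal axis, log scale) of the peak that stands for each gene in the RNF2 and RING1 lists of set A; coloured points are repair genes, grey points other protein-coding genes, and the 4 members of highest fold are named. The member points reach a fold of 7.47 for RNF2 and 6.58 for RING1, and the grey points 20.3 and 14.2.

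RNF2 peaks were taller and wider, by their medians, at members that also had RING1. In set A, the RNF2 peaks of the 21 members that also had RING1 had a median fold of 4.70 and a median width of 946 bp, and those of the 11 members without RING1 had 3.73 and 412 bp. The other genes had medians in the same order, 4.61 and 1339 bp with RING1 and 3.71 and 711 bp without. At 18 of the 21 members with both proteins the RNF2 peak was the wider of the pair, and at BARD1, EME1 and FANCA the RING1 peak was. This count takes the peak of highest fold in each list, and at FANCE and FANCG those peaks lay at opposite ends of the gene. It was not made for the other genes. Over all peaks of set A, the median width was 973 bp for RNF2 and 704 bp for RING1. At the start of FANCG the RING1 peak was the wider, 731 bp against 513 bp for RNF2, and at the start of FANCE the RNF2 peak was, 1360 bp against 545 bp for RING1.

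The annotated start of 31 members was known, and most peaks of set A lay near it. A RefSeq start within 2 kb of an RNF2 peak of set A was found for 29 of 31 members (93.5%), against 58.3% of the other 15812 genes with a known start. For RING1 in set A the count was 20 of 31 (64.5%), against 47.0%. For RNF2 in set B it was 3 of 31 (9.68%), against 21.5%, and for RING1 in set B 0 of 31, against 1.19%. RAD51B and RAD51C had a start without a peak of any list (6.45% of the members), against 38.6% of the other genes. RNF2 in both sets was at 3 of 31 starts, against 20.7% of the other genes. The peak covered the start itself at 25 of the 29 members with RNF2 in set A (86.2%), against 85.1% of the other genes. Of the 28 members of known strand with RNF2 at a gene end in set A, 25 had it at the 5′ end only (89.3%, against 82.2% of the other genes). At the 3′ end only there were 0 (against 3.46%), and MUS81, FANCE and FANCG had it at both ends (10.7%, against 14.3%). In set B, 4 members of known strand had RNF2 at a gene end. MUS81 and GEN1 had it at the 5′ end only (50%, against 78.4% of the other genes). FANCE and FANCG had it at the 3′ end only (50%, against 8.25%).

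**Figure D3:**
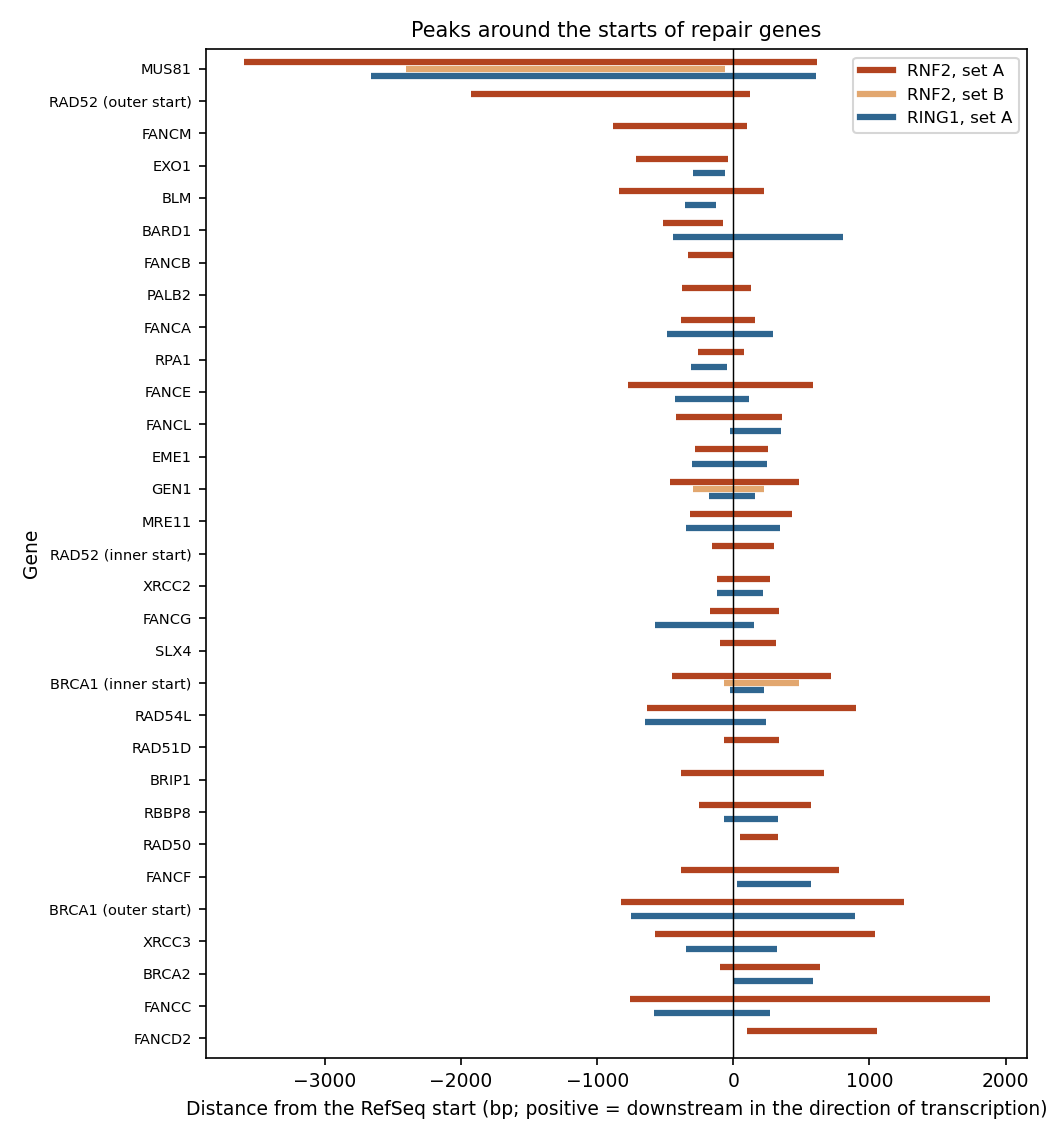
Extent of each called peak around the RefSeq start of the repair genes (horizontal axis, bp, positive in the direction of transcription) for RNF2 in set A, RNF2 in set B and RING1 in set A; genes are ordered by the centre of the RNF2 peak of set A, and BRCA1 and RAD52 are drawn at 2 starts each, since separate peaks lay at them. Most bars cross the start and span under 2 kb, MUS81 reaches farthest upstream at 3597 bp, and the bars of RNF2 in set B are found at MUS81, GEN1 and the inner start of BRCA1.

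Most of these starts were CpG-rich, here meaning a GC share of at least 50% and an observed-over-expected CpG ratio of at least 0.6 in the 300 bases around the start (250 before it and 50 after it). Of the 31 members, 29 had such a start (93.5%), against 68.3% of the other genes, and FANCM and RAD51B did not. Among CpG-rich genes, RNF2 of set A lay at 28 of 29 members (96.6%), against 77.6% of the other genes, and RING1 of set A at 20 of 29 (69.0%), against 63.0%. RNF2 of set B lay at 3 of 29 (10.3%), against 29.0%, and RING1 of set B at 0 of 29, against 1.51%. The same 3 had RNF2 in both sets, against 28.0% of the other CpG-rich genes. No list had a peak at 1 of 29, RAD51C, against 18.8%. Among other genes without a CpG-rich start, RNF2 of set A lay at 16.7% and RING1 of set A at 12.5%. The difference between members and other genes in set A was 35.3 percentage points for RNF2 over all known starts and 19.0 points over CpG-rich starts, and for RING1 it was 17.5 and 5.93 points.

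**Figure D4:**
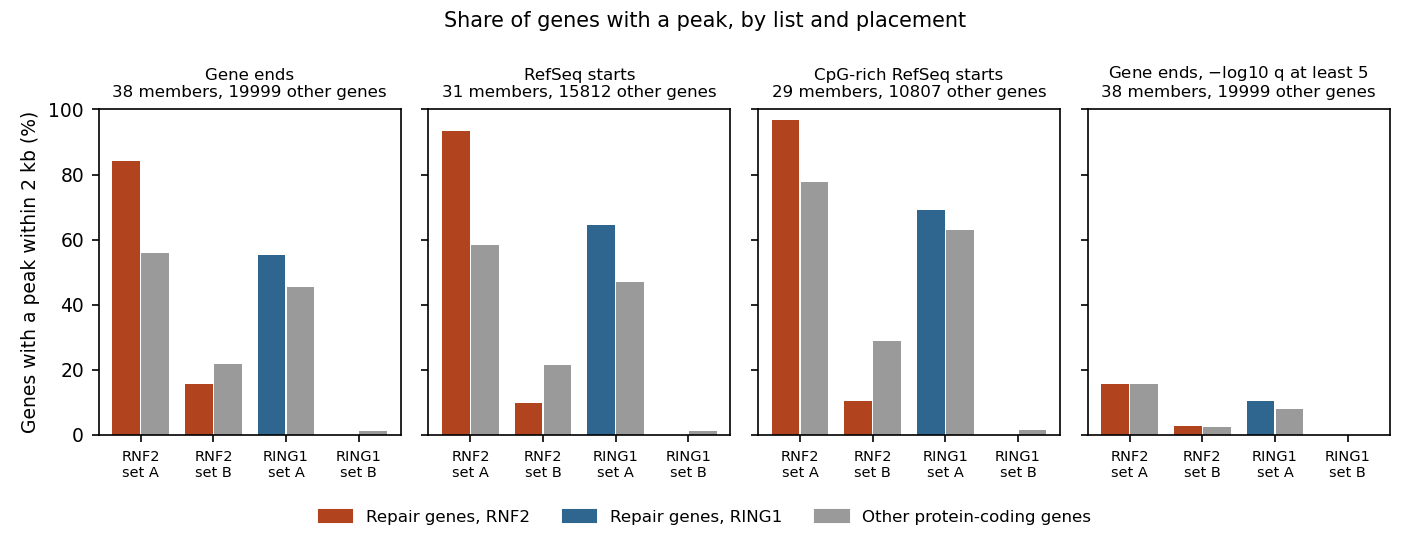
Share of repair genes (colour) and of other protein-coding genes (grey) with a peak, in percent, for each of the 4 lists and 4 ways of counting. For RNF2 in set A the members stand at 84.2%, 93.5% and 96.6% in the panels of gene ends, starts and CpG-rich starts. At gene ends they stand at 15.8% beside 15.7% of the other genes when peaks of −log10 q under 5 are dropped.

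The starts printed next show the range of sequence among the members. GEN1 is shown because its start lay under peaks of 3 lists, MUS81 for the widest peaks and FANCG for the highest RNF2 fold at a known start. RBBP8 is shown for a start inside the annotated gene, RAD51C as a CpG-rich start without any peak, and RAD51B as a CpG-poor start without a peak. Each window is RefSeq sequence of GRCh38.p14, 300 bases in the direction of transcription, with every CpG in capitals.
GEN1, chr2:17753619-17753918, plus strand: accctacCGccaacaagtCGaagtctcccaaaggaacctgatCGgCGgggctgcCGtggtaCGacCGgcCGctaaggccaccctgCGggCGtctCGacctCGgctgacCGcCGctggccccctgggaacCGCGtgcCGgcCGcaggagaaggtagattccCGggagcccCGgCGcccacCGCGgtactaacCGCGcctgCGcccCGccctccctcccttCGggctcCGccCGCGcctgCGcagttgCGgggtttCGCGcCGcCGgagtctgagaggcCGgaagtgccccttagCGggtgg
MUS81, chr11:65860183-65860482, plus strand: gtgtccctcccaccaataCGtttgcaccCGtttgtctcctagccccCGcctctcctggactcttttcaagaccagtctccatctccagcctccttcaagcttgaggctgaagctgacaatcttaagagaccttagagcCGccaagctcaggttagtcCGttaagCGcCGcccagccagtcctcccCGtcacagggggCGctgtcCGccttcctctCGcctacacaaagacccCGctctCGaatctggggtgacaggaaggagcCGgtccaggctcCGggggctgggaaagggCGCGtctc
FANCG, chr9:35079893-35080192, minus strand: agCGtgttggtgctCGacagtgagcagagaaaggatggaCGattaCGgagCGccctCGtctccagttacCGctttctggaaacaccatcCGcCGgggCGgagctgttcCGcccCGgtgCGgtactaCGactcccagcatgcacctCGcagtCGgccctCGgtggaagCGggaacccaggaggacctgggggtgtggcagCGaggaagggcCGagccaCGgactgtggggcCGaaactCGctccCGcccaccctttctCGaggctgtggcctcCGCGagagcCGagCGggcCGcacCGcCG
RBBP8, chr18:22933078-22933377, plus strand: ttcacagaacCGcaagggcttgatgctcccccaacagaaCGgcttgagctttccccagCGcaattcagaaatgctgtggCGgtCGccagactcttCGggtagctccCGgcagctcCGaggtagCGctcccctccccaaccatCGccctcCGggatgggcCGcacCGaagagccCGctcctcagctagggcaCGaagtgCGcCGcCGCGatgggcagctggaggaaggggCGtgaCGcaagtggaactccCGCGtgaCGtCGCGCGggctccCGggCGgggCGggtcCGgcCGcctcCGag
RAD51C, chr17:58692323-58692622, plus strand: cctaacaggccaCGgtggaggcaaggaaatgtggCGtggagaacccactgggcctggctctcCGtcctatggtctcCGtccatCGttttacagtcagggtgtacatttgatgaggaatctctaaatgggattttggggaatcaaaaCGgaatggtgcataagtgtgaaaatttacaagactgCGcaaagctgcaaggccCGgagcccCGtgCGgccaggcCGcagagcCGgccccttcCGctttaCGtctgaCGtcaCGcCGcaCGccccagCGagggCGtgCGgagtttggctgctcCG
RAD51B, chr14:67823291-67823590, plus strand: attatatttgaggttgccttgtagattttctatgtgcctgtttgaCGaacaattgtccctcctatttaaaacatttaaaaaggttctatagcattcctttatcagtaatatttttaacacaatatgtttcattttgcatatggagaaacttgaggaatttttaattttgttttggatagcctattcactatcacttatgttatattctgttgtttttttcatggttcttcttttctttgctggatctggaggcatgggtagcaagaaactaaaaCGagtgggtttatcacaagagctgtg

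The GEN1 window held 39 CpGs, that of RBBP8 33, FANCG 32, RAD51C 22, MUS81 17 and RAD51B 2. Over the 41 known starts of the members the count had a median of 27 and ran from 2 to 48, against a median of 21 and a range from 0 to 69 over the 22158 starts of the other genes. Whether the CpG count goes with the peaks was not tested. RAD51C had its nearest peak of any list 19836 bp away. MUS81 had the widest peaks of all members, and its RNF2 peak of set A reached 3597 bp upstream of the start, beyond the printed window. The median GC share was 64.7% in members and 62.3% in the other genes, and the median observed-over-expected CpG ratio was 0.916 and 0.737.

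Letters bound by promoter factors were counted in the same windows on both strands. The ETS letters CCGGAAG were in 10 of 31 members (32.3%), against 16.5% of the other genes and 22% of the other CpG-rich genes. The E2F letters TTTCCCGC or TTTGGCGC were in 3 members (9.68%; FANCC, FANCD2 and XRCC2), against 3.69% of the other genes and 4.79% of the other CpG-rich genes. The NRF1 letters GCGCATGC were in 3 members (9.68%; RBBP8, SLX4 and XRCC2), against 4.88% and 6.62%. The letters CCAAT were in 13 members (41.9%), against 42.1% of the other genes and of the other CpG-rich genes alike. The E-box letters CACGTG were in 4 (12.9%), against 10.9% and 13.4%, and the CHR letters TTTGAA in 2 (6.45%), against 15.9% and 12.6%. A match describes the letters of the window and is not a measured binding site.

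Several of the starts lie close to an opposite-strand start of another gene, so that 1 peak can lie at both. A start on the opposite strand within 1 kb was found for 14 of 31 members (45.2%), against 25.9% of the other genes. This counts neighbours of any gene type, non-coding ones included, whichever way the 2 starts face. RNF2 of set A lay at 13 of these 14 members (92.9%), against 77.2% of the other genes with such a neighbour, and at 16 of the 17 members without one (94.1%), against 51.7%. In the RNF2 list of set A, every peak of 16 of the 32 members also lay within 2 kb of an end of another protein-coding gene (50%), against 33.2% of the other genes with a peak. Without the genes whose only peaks were shared, 16 of 22 members kept RNF2 in set A (72.7%), against 46.0% of the other genes, and 13 of 30 kept RING1 in set A (43.3%), against 35.7%.

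The counts by role below can be read against the shares of the other protein-coding genes at gene ends. For RNF2 those shares were 56.0% (set A) and 21.7% (set B), and for RING1 45.6% (set A) and 1.32% (set B). With 2 to 8 genes a group, no role was compared with another. Among the genes of end resection and the helicases, RNF2 was at the gene ends of 4 of 8 in set A (RAD50, NBN, EXO1 and BLM) and RING1 at 3 of 8 (NBN, EXO1 and BLM), with 0 of 8 in either list of set B. NBN, which with MRE11 and RAD50 forms the complex that senses the break, had an RNF2 peak of fold 5.39 and 867 bp and a RING1 peak of fold 4.57 and 269 bp in set A. RAD50, the ATPase of that complex, had an RNF2 peak alone, of fold 3.80 and 282 bp, which began 46 bp downstream of its start. That peak also lay within 2 kb of an end of IL5. The long-range nuclease EXO1 had RNF2 at fold 5.28 over 680 bp and RING1 at fold 4.22 over 232 bp, and both peaks ended upstream of the start, by 39 and 63 bp. BLM, a helicase that unwinds ends for resection and dissolves crossed strands, had RNF2 at fold 3.87 over 1068 bp and RING1 at fold 3.07 over 227 bp. That RING1 peak was near the bottom of its list, rank 12873 by fold of 12891.

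MRE11, the nuclease that opens resection, and RBBP8, which encodes its cofactor CtIP, had no peak at their annotated ends and yet had peaks at their RefSeq starts, which lie inside the annotated genes. The start of MRE11 lies 18568 bp inside the gene end and carried RNF2 at fold 4.43 over 750 bp and RING1 at fold 3.64 over 695 bp in set A, next to ANKRD49. The starts of RBBP8 lie 19189 and 19728 bp inside and carried RNF2 at fold 7.24 over 828 bp (chr18:22933074-22933901) and RING1 at fold 4.02 over 392 bp. With starts counted beside ends, 34 of 38 members had RNF2 in set A (89.5%), against 58.5% of the other genes, and 23 had RING1 (60.5%), against 48.0%. Counted this way, RING1 in set B remained at 0 of 38, against 1.43%, and 4 members had no peak in any list (10.5%), against 38.2%. Of these, DNA2, WRN and RPA3 had no known start, so only their annotated ends were checked. RAD51C was checked at both. The nuclease-helicase DNA2 and the helicase WRN had no peak near. The closest RNF2 peak of set A lay 54644 bp from an end of DNA2 and 121664 bp from an end of WRN.

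Among the RPA genes, RPA2 had the highest RNF2 fold of all members in both sets, and RPA3 had no peak at its ends. RPA2, the regulatory subunit that is phosphorylated after damage, had RNF2 at fold 7.47 over 1543 bp in set A (chr1:27914155-27915697, GRCh38.p14, as for all positions here) and at fold 5.18 over 409 bp in set B, and RING1 at fold 6.31 over 1394 bp in set A. By fold, those peaks ranked 604 of 16263, 436 of 5901 and 682 of 12891, and RPA2 was the only member whose RNF2 peak of set B reached a −log10 q of 5, at 5.28. RPA1, the large DNA-binding subunit, had RNF2 at fold 3.64 over 338 bp and RING1 at fold 3.32 over 270 bp in set A, next to SMYD4. RPA3, the small subunit, had its nearest RNF2 peak of set A 3798 bp from a gene end, inside the gene.

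All 5 genes of the BRCA1-BRCA2 axis had RNF2 in set A, 3 of 5 had RING1 there (BRCA1, BARD1 and BRCA2), and 0 of 5 had a peak at a gene end in set B. BRCA1, the ubiquitin ligase that directs breaks to recombination, had RNF2 at fold 4.77 over 2081 bp and RING1 at fold 4.07 over 1646 bp in set A at its outer start. That start lies 82 bp from the start of NBR1, an autophagy receptor gene. The inner start of BRCA1, 44963 bp inside the gene and 193 bp from the start of NBR2, had peaks in 3 lists. These were RNF2 at fold 4.27 over 1170 bp in set A (chr17:43124645-43125814) and 4.52 over 554 bp in set B, and RING1 at fold 5.28 over 251 bp in set A. This start is not reached from the annotated gene ends, so BRCA1 is not among the 6 members counted in set B; with starts included, the RNF2 count was 7 in set B (18.4%), against 23.0% of the other genes.

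BARD1, the partner of BRCA1 in the ligase, had RNF2 at fold 4.07 over 446 bp, ending 73 bp upstream of the start, and a wider RING1 peak of fold 3.96 over 1254 bp across the start. BRCA2, which acts after PALB2 at the resected tail, had RNF2 at fold 3.99 over 731 bp and RING1 at fold 4.74 over 587 bp, shared with ZAR1L. PALB2, the bridge between BRCA1 and BRCA2, had RNF2 at fold 3.22 over 509 bp and no RING1. Its start lies 156 bp from that of DCTN5, and its peak ranked 15461 by fold of 16263. The helicase gene BRIP1 had RNF2 at fold 3.73 over 1056 bp and no RING1, and shared that peak with INTS2, a subunit of the Integrator complex.

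Of the filament paralogs (RAD51B, RAD51C, RAD51D, XRCC2 and XRCC3), whose products assist the protein filament on the resected tail, 4 of 5 had RNF2 in set A, XRCC2 and XRCC3 also had RING1, and 0 of 5 had a peak in set B. XRCC3 had the strongest peaks of the group, RNF2 at fold 4.48 over 1617 bp and RING1 at fold 5.50 over 670 bp, at a start 359 bp from that of ZFYVE21. XRCC2 had RNF2 at fold 3.33 over 390 bp and RING1 at fold 3.36 over 337 bp, with 1 common edge 120 bp upstream of the start. RAD51D had RNF2 at fold 3.74 over 405 bp, shared with FNDC8, and its nearest RING1 peak lay 2428 bp from a gene end, just outside the window.

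The RAD51B peak of RNF2, of fold 4.46 over 278 bp, lay at the outer end of the annotated gene, 3535 bp upstream of the nearest listed start. The CpG-poor window of that start is printed above. The nearest RING1 peak lay 3038 bp from a gene end. RAD51C had no peak, and the nearest RNF2 peak of set A lay 19836 bp from its ends.

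All 3 genes of the RAD52 and RAD54 group had RNF2 in set A, RAD54L and RAD54B had RING1, and 0 of 3 had a peak in set B. RAD52, which anneals single strands, had RNF2 at fold 4.06 over 2048 bp at its outer start, shared with ERC1, and at fold 3.17 over 456 bp at a start 41428 bp inside the gene. RAD54L, a motor protein that drives strand exchange, had RNF2 at fold 3.93 over 1536 bp and RING1 at fold 4.21 over 887 bp. Its paralog RAD54B had RNF2 at fold 4.70 over 948 bp and RING1 at fold 3.62 over 750 bp.

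Among the junction nucleases, RNF2 was at 4 of 4 in set A and at 2 of 4 in set B (MUS81 and GEN1), and RING1 at 3 of 4 in set A (all but SLX4). MUS81, the catalytic subunit that cuts branched DNA together with EME1, had the widest peaks of all members. These were RNF2 over 4214 bp at fold 6.42 in set A (chr11:65856836-65861049) and over 2344 bp at fold 3.54 in set B, and RING1 over 3269 bp at fold 6.29 in set A. The set A peaks covered the start of MUS81, while the set B peak ended 61 bp before it, and all 3 also lay within 2 kb of an end of CFL1, which encodes the actin regulator cofilin. Smaller set A peaks at the 3′ end of MUS81, of fold 4.34 for RNF2 and 3.46 for RING1, were shared with EFEMP2.

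GEN1, the resolvase that cuts crossed strands symmetrically, had low peaks in 3 lists that all covered its start: RNF2 at fold 3.37 over 946 bp in set A and 3.57 over 517 bp in set B, and RING1 at fold 3.45 over 333 bp in set A. The start of SMC6, a subunit of a cohesin-like repair complex, lies 59 bp away. EME1 had RNF2 at fold 4.70 over 539 bp and RING1 at fold 3.49 over 554 bp, with the start of MRPL27 45 bp away. SLX4, a scaffold for nucleases, had RNF2 at fold 3.55 over 412 bp, with the start of DNASE1 154 bp away.

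The Fanconi core complex with FANCM was the largest group with RNF2 at every gene in set A, 8 of 8, with RING1 at 6 of 8 (all but FANCB and FANCM). FANCC had RNF2 at fold 5.90 over 2644 bp (chr9:95315371-95318014) and RING1 at fold 6.58 over 857 bp, the highest RING1 fold of the members, with a −log10 q of 8.03. FANCA had RNF2 at fold 6.48 over 547 bp and RING1 at fold 4.74 over 780 bp. FANCL, the ligase subunit of the complex, had RNF2 at fold 5.00 over 782 bp and RING1 at fold 3.74 over 377 bp.

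FANCF, an adaptor subunit, had RNF2 at fold 4.59 over 1166 bp and RING1 at fold 3.48 over 548 bp, shared with GAS2. FANCB, an X-linked subunit, had RNF2 at fold 3.85 over 332 bp, and FANCM, the translocase that anchors the complex on DNA, had RNF2 at fold 3.61 over 984 bp. Both peaks also lay within 2 kb of an end of a neighbour, MOSPD2 at FANCB and FKBP3 at FANCM.

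FANCE and FANCG had the 2 set B peaks of the group, and in both genes these lay at the 3′ end, where set A had peaks as well. At FANCG, RNF2 of set A had fold 7.31 over 513 bp at the start, with the highest −log10 q of any member peak, 11.1, and a further peak of fold 4.24 over 1023 bp at the other end, next to VCP. The RNF2 peak of set B, of fold 4.16 over 653 bp, overlapped that further peak, 1103 bp beyond the gene and within 2 kb of VCP. RING1 of set A was found at both ends of FANCG, at fold 4.21 over 731 bp at the start and at fold 5.01 over 425 bp next to VCP. At FANCE, RNF2 of set A had fold 3.57 over 1360 bp at the start and 4.36 over 1458 bp next to the ribosomal protein gene RPL10A. The set B peak, of fold 4.12 over 567 bp, also lay next to RPL10A, 1063 bp beyond the gene. With windows of 1 kb these drop out, and 4 members kept RNF2 in set B (10.5%), against 20.3% of the other genes.

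Both genes of the FANCD2-FANCI pair, which is ubiquitinated at the crosslink, had RNF2 in set A, FANCI also had it in set B, and neither had RING1. FANCD2 had RNF2 at fold 3.61 over 960 bp in set A, starting 100 bp downstream of its start. FANCI had RNF2 at fold 3.21 over 344 bp in set A and 3.52 over 411 bp in set B, the 2 peaks overlapping at the left end of the gene (chr15:89243979-89317259).

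The authors' consolidated file of 4255 regions, all of which met an RNF2 peak of set A and 4239 of which met 1 of set B, touched the ends of the same 6 members as the RNF2 list of set B: RPA2, MUS81, FANCI, GEN1, FANCE and FANCG (15.8%, against 21.0% of the other genes). At starts it touched 3 members, MUS81, GEN1 and BRCA1. The other genes were not counted at starts for this file, so that count has no background.

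A further 52 genes of the same pathways, which are not members, had a share with RNF2 close to that of the members in set A and a larger one in set B. The difference between the lists was not tested. RNF2 of set A was at 44 of 52 (84.6%), against 55.9% of the remaining 19947 genes, and RING1 of set A at 35 (67.3%), against 45.6%. RNF2 of set B was at 14 (26.9%), against 21.7%, and RING1 of set B at 0, against 1.32%. Among those with the highest RNF2 folds in set A were SLF2, a partner of the SMC5-SMC6 complex, at 7.79, EME2, an alternative partner of MUS81, at 7.41, and CENPS, a partner of FANCM, at 7.19. In set B, RNF2 was found at SLF2 (fold 3.71), EME2 (5.59) and CENPS (3.30).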

How the data were processed

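CUT&RUN libraries of neural progenitor cells were prepared with the EpiCypher kit and read on a NextSeq instrument (labels' protocols). Tools listed in the submitters' processing notes, with no role stated, are MACS2 2.2.9.1, deepTools 3.5.2, bedtools 2.30.0, Picard 2.8.1, SAMtools 1.9 and BWA 0.7.17, for hg38. The deposited lists are in broad peak format, 1 per antibody and set, and were taken as called per library; the control and the read depth are unknown here, and counting intervals need that depth. The authors' fold of a peak is the ratio of its signal to background, and the deposited significance is −log10 of the q-value, with lowest values just above 1, which corresponds to a limit at q = 0.1. The authors' consolidated region file, also deposited, holds positions only.

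From these, the peaks of chromosomes X, Y and 1 to 22 were assigned to each protein-coding gene with an annotated end within 2 kb (RefSeq, GRCh38.p14, the assembly behind hg38). Where a gene had several peaks in a list, the highest fold stands for it. RefSeq start windows were available for 15843 of 20037 genes and 31 of 38 members; all members and all 52 further pathway genes matched a gene. Named genes are all 38 members, the genes that share their peaks, and the 4 further pathway genes of highest RNF2 fold in set A, of which 1 is not reported here. The members and lists were chosen with earlier results of these data known. The definition of a CpG-rich start, the CHR letters, and the counts over starts combined with gene ends were chosen after seeing the data. The assignment was tested on simulated data: peaks planted at 2000 of 20037 genes were recovered at 100% of them, with 0 genes assigned otherwise. Scripts ran in Python 3.11.15 with matplotlib 3.10.9, SciPy 1.17.1, pandas 2.3.3 and numpy 2.4.6.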

Additional observations from a re-analysis of the deposited data

How the results depend on the processing

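No list had a repeat of its own, so depth and peak calling of each library limit the counts, those that combine 2 to 4 lists included, and no interval or test was available. No paired analysis was possible because the results are counts of called peaks and come from no test. For RNF2 in set A, the members' share lay between 71.1% and 96.6% and that of the other genes between 46.8% and 77.6% with windows of 1 or 5 kb, gene bodies, starts (31 members), CpG-rich starts (29), chromosomes 1 to 22 (37) and a −log10 q of at least 2. The count was 6 of 38 at a −log10 q of at least 5 (15.8%, against 15.7%), 1 with lists cut to 659 peaks (2.63%, against 3.91%) and 16 of 22 without genes whose only peaks are shared (72.7%, against 46.0%). In the same 3 settings RING1 in set A gave 4, 2 and 13 members (10.5%, 5.26% and 43.3%, against 7.96%, 3.70% and 35.7%). RNF2 in set B gave 1, 1 and 2 (2.63%, 2.63% and 5.88%, against 2.56%, 3.55% and 15.0%). RNF2 in both sets gave 1 of 38, 0 of 38 and 2 of 20, against 2.41%, 2.21% and 15.8% of the other genes. RNF2 in set B and RNF2 in both sets each had 3 members at RefSeq starts (9.68%, against 21.5% and 20.7%). At CpG-rich starts (added after seeing the data) each also had 3 (10.3%, against 29.0% and 28.0%). The difference in share between members and other genes changed sign for RNF2 in set A with lists cut to 659 peaks (−1.28 percentage points) and for set B RNF2 with peaks of −log10 q under 5 dropped (0.0715 points), each 1 of 11 alternatives, and for RING1 in set A in 0 of 11. RING1 in set B had no member in any setting, so its difference could not change sign. The cause of the sign changes was not tested, and these limits also leave fewer peaks. Leaving out set A gave 6 members for RNF2 (15.8%, against 21.7% of the other genes). It gave 0 for RING1 (against 1.32%) and 0 for both proteins together (against 1.29%). Leaving out set B gave 32 for RNF2 (84.2%, against 56.0%) and 21 for RING1 (55.3%, against 45.6%). For both proteins together it gave 21 (55.3%, against 43.0%). Of the 59 folds of members, 57 were equal to 3 digits with the peak nearest to an end, 56 with the widest peak and 58 with windows of 5 kb, and so were all 57 found with windows of 1 kb; the exceptions were at FANCE and FANCG (other peak) and RPA1 (5 kb).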
